A study of Bos taurus with 15 samples.

Results

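Of the 31999 rows of the bovine morula count table, 27607 have an Ensembl identifier, and 100 of these were described here: those with the highest mean CPM (count divided by the library's total count and expressed per 1000000 counts) over the 5 ICSI libraries. They are called members and are numbered by their rank in that mean, so member 1 had the highest count. The members were chosen by their measured level in the ICSI libraries, so those levels are a description and not a finding. The ranking is of counts and was not divided by gene length, so it does not order the genes by number of molecules. Member 100 stood at 1236 ± 326 CPM (SD, n = 5) in ICSI morulae. Members 98 and 99, just inside the limit, stood at 1252 and 1249 CPM, and the rows ranked 101, 102 and 103, just outside it, at 1226, 1218 and 1209 CPM. Membership near the limit was therefore within the spread between libraries.

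Polyadenylated RNA was measured in whole bovine morulae, the compacting ball of cells that precedes the blastocyst. The 15 libraries were 5 haploid androgenetic (titles beginning with TII), 5 haploid parthenogenetic (CHX) and 5 diploid ICSI libraries. Androgenetic embryos carry chromosomes of the sperm alone, parthenogenetic embryos those of the oocyte alone, and ICSI embryos, made by injecting a sperm into an oocyte, carry both. The series title places the study in WNT signalling and cell fate of haploid androgenetic development. The sources used here give no breed, bull, oocyte source, age in hours, pooling of embryos or batch. Each group was made by its own procedure, so ploidy, parental genome and procedure cannot be told apart. The labels do not say that replicates were separate embryos or pools, so each p-value speaks of the spread among these 15 libraries alone.

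The most abundant messages of a cleaving embryo are of several kinds. Some were stored in the oocyte and are cleared after the embryo's own genome is switched on, and others are made by the embryo. In most animal cells the top of the list is held by messages for ribosomal proteins, translation factors, the cytoskeleton, chromatin proteins and the respiratory chain, including those made in the mitochondria. Because sequencing divides a fixed number of reads among all RNAs, a few abundant messages set how many reads are left for the rest, and a change in them moves every other share.

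None of the 100 members could be named. The RefSeq table used here had 0 rows with a bovine Ensembl identifier, so the members could not be looked up in it. No member could therefore be counted in any of the 12 gene lists drawn up (ribosomal proteins, translation factors, mitochondrial and other respiratory proteins, histones and the like). No sequence is shown. Identifiers are printed for 4 members: member 52, the one that passed the test of the haploid groups, and members 37, 38 and 72, which were picked after their values had been seen. Of 31 marker genes for inner cells, trophectoderm, primitive endoderm, oocyte, cumulus and sperm, 1 had a row under its symbol. That gene, the pluripotency factor SOX2, was low throughout: androgenetic libraries had 0.105 to 4.76 CPM, ICSI libraries 1.01 to 4.81 and parthenogenetic libraries 1.69 to 7.27, so the labelled stage could hardly be checked. Among members, 1 could be tied to a symbol through its counts: member 51 had nearly the counts of the row RBM8A in every library (within 2% or 3 counts). RBM8A encodes a core protein of the exon junction complex, which is laid on messages during splicing. Whether both rows count a single gene was not tested.

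Library totals ran from 19968077 to 28981601 counts. The lowest count of any member in any library was 946, which has a counting SD of 3.25% of its value, so differences between libraries in the members were far larger than counting error. Rows detected were fewest in androgenetic replicate 6 (13564), parthenogenetic replicate 6 (16154) and ICSI replicate 5 (15286), against 19950 in the library with most. The group means were 16634 in androgenetic, 18066 in parthenogenetic and 18815 in ICSI morulae. Every androgenetic library (13564 to 18633) had fewer rows detected than any of ICSI replicates 1 to 4 (19196 to 19950). The row of 18S ribosomal RNA, RN18S1, lay between 35.5 and 1289 CPM, and its part in the results below was not tested. Among the libraries with few rows, parthenogenetic replicate 6 stood apart from its group in the members' share of counts too. Several results that rest on it are given with and without it, among them the members' share and edgeR's counts of calls. The other libraries with few rows were also rather unlike their groups in the members' levels. Spearman's rho with a library of the same group was at most 0.513 for ICSI replicate 5 and 0.641 for androgenetic replicate 6. It was also at most 0.576 for parthenogenetic replicate 2, with 18111 rows detected, and 0.641 for androgenetic replicate 4, with 18633. Such unlikeness was thus not confined to the libraries with few rows.

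Together the members took 23.8% ± 1.59 (SD, n = 5) of all counts in ICSI morulae, 25.97% ± 3.36 in parthenogenetic and 27.7% ± 1.25 in androgenetic morulae. In ICSI replicates 1 to 5 the share was 24.4%, 23.8%, 22.3%, 22.2% and 26.02%. In parthenogenetic replicates 1, 2, 3, 5 and 6 it was 24.8%, 25.5%, 23.1%, 24.6% and 31.8%. In androgenetic replicates 1, 2, 4, 5 and 6 it was 26.5%, 28.8%, 26.2%, 28.8% and 28.1%. The androgenetic libraries all lay above the ICSI libraries, with 26.19% and 26.02% as the closest, while the parthenogenetic libraries overlapped both other groups. The exact 95% binomial intervals of these shares reach at most 0.0195 points to either side and cover counting error only.

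The list was chosen in ICSI libraries, and a list of highest values has a share in its own group that is raised by the choice. A choice made from 4 ICSI libraries and read in the library left out gave 23.4% ± 1.23 (n = 5), with 90 to 99 of its rows being members. The haploid groups thus had higher mean shares in members chosen in another group. The difference was 3.91 points for androgenetic minus ICSI and 4.31 points with the shares of the left-out ICSI libraries. For parthenogenetic minus ICSI it was 2.22 points, and 0.768 points without parthenogenetic replicate 6. Between the haploid groups, which the choice did not use, the androgenetic mean was 1.69 points higher, and 3.14 points higher without parthenogenetic replicate 6.

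**Figure D1:**
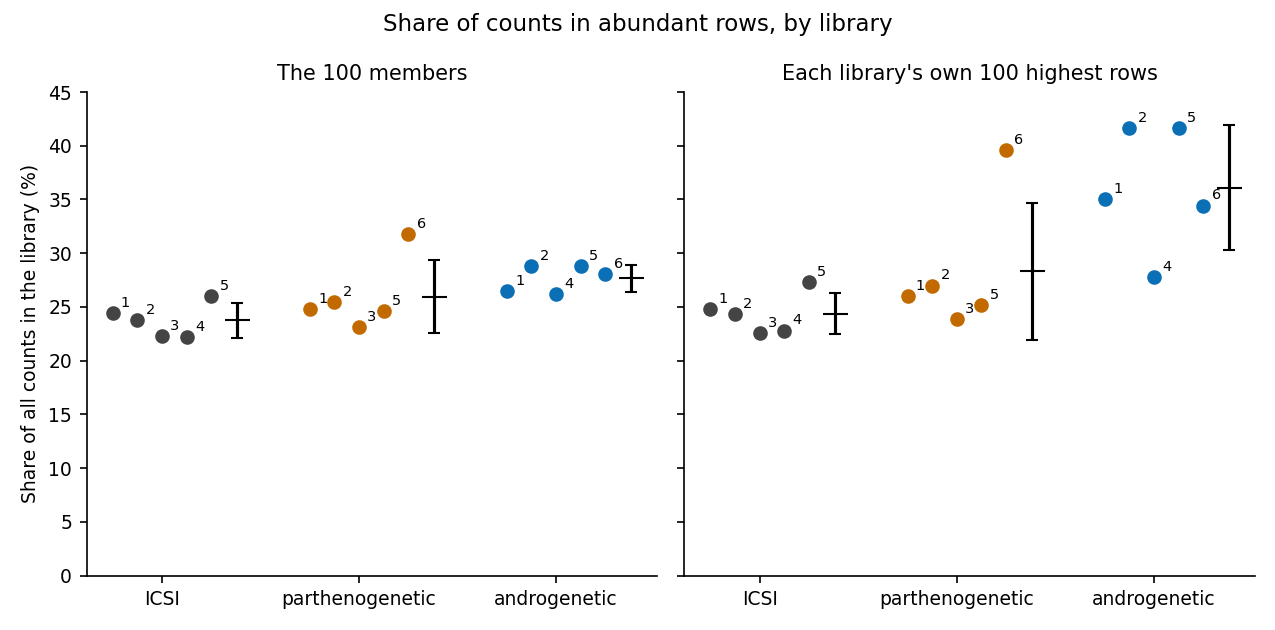
The left panel plots the percent of each library's counts on the 100 members and the right panel the percent on that library's own 100 highest Ensembl rows; points are libraries with their replicate numbers, and bars give the mean and SD of 5. The member share lies between 22.2% and 31.8% in all libraries, while the share of the own highest rows reaches 41.7% in androgenetic replicate 5.

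The rows that were most abundant differed between groups more than the members' share did. Each library's own 100 highest Ensembl rows took 24.4% ± 1.92 of counts in ICSI, 28.3% ± 6.40 in parthenogenetic and 36.1% ± 5.79 in androgenetic morulae (n = 5 each). Androgenetic replicates 1, 2, 4, 5 and 6 stood at 35.0%, 41.6%, 27.8%, 41.7% and 34.4%, all above the highest ICSI library at 27.3%. The difference of 11.7 points between androgenetic and ICSI morulae passed an exact two-sided permutation test (p = 0.00794, the smallest this design allows, adjusted p = 0.0238 over 3 comparisons). It also passed without each of those 10 libraries in turn, at 10.4 to 13.8 points. Groups that do not overlap must pass when 1 library is left out, so this adds no support. For androgenetic minus parthenogenetic the difference was 7.79 points (exact permutation p = 0.0952, adjusted p = 0.143). Without parthenogenetic replicate 6 it was 10.6 points and passed (adjusted p = 0.0238 in the same exact test). For parthenogenetic minus ICSI it was 3.95 points (exact permutation p = 0.183, adjusted p = 0.183) and 1.13 points without that library. This test was added after the shares had been seen, and a like measure over fewer rows was known beforehand. All androgenetic libraries also had fewer rows detected than ICSI replicates 1 to 4, and the part of this in the share of the highest rows was not tested.

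Of the 100 members, 79 to 88 were among a library's own 100 highest rows in ICSI libraries, which were used to choose them. In parthenogenetic replicates 1, 2, 3, 5 and 6 the numbers were 78, 74, 78, 84 and 58. In androgenetic replicates 1, 2, 4, 5 and 6 they were 53, 45, 75, 43 and 53. Androgenetic replicate 4 thus lay within the parthenogenetic range, parthenogenetic replicate 6 lay near the other androgenetic libraries, and the groups overlapped.

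By group means, 83 members were among the 100 highest rows of parthenogenetic morulae and 57 among those of androgenetic morulae, and 56 rows were in the lists of all 3 groups. The 17 members outside the parthenogenetic list stood no lower than rank 147. The 43 outside the androgenetic list had a median rank of 185 and reached rank 533. Those 43 took 7.46% of counts in ICSI and 4.14% in androgenetic morulae. The 43 rows in their places took 10.3% of counts in androgenetic and 3.72% in ICSI morulae. Their ranks in ICSI ran from 101 to 549, with 24 of them between 101 and 200, so none came from the low end of the table. The same choice made in the androgenetic group gave a list with 33.8% ± 6.69 of counts there and 20.01% ± 2.07 in ICSI libraries. A list chosen in the parthenogenetic group had 26.7% ± 5.28 there and 23.0% ± 1.69 in ICSI libraries. A list has a raised share in the group that chose it. The rows leaving and entering were picked by the same group means. The directions of the share differences in this paragraph were thus set by the choice, and the values are a description.

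**Figure D2:**
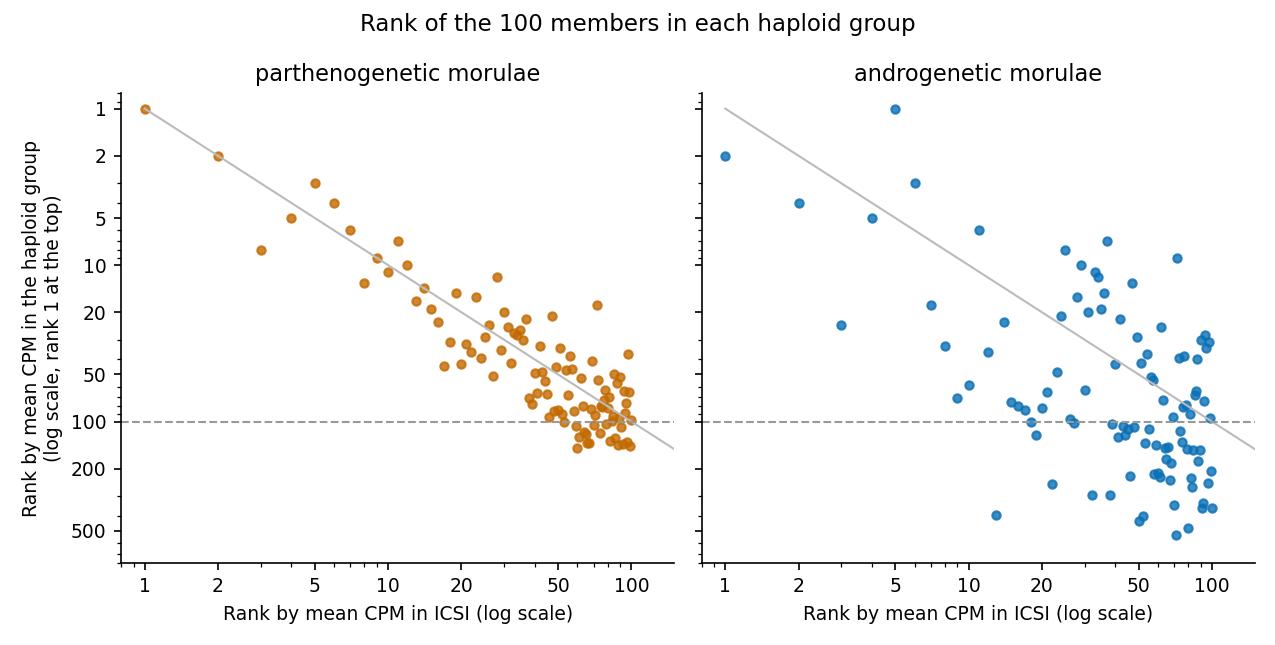
Each point is a member, with its rank by mean CPM in ICSI on the horizontal axis and its rank in the parthenogenetic (left) or androgenetic (right) group on the vertical axis, both logarithmic; the grey line marks equal rank and the dashed line rank 100. Parthenogenetic ranks reach 147 at most, and androgenetic ranks scatter down to 533.

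At the head of the list, members 1 and 2 were the highest rows of ICSI and parthenogenetic morulae alike. Member 1 had 12061, 8276, 8420, 8887 and 19598 CPM in ICSI replicates 1 to 5. It had 11831, 16203, 11435, 12573 and 22495 CPM in parthenogenetic replicates 1, 2, 3, 5 and 6, and 4747, 3248, 12379, 3367 and 38822 CPM in androgenetic replicates 1, 2, 4, 5 and 6. The androgenetic libraries lay on both sides of the others, and no group was separate. The log2 fold change between the haploid groups, on the TMM-scaled counts of the edgeR fit, was 0.17 ± 0.67 (SE; edgeR adjusted p = 0.927). Member 2 behaved alike in androgenetic replicates 4 and 6, at 20030 and 16857 CPM, against 2748, 1664 and 2462 CPM in replicates 1, 2 and 5. The SD of both members in androgenetic morulae, 15182 and 8926 CPM, was larger than the mean, 12512 and 8752 CPM.

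Member 5 was the highest row of androgenetic morulae, at a mean of 20036 ± 10624 CPM, where it stood at 8766 ± 5271 in parthenogenetic and 6030 ± 2254 in ICSI morulae. Its androgenetic values were 20699, 32657, 11781, 27794 and 7251 CPM in replicates 1, 2, 4, 5 and 6. Its parthenogenetic values were 6207, 10531, 4214, 5674 and 17202 CPM in replicates 1, 2, 3, 5 and 6, and its ICSI values 3645, 8728, 4135, 5702 and 7939 CPM in replicates 1 to 5. In androgenetic replicate 2 it alone took 3.27% of all counts. Only androgenetic replicate 6 of that group lay within the ICSI range. Between the haploid groups the log2 fold change was 1.42 ± 0.55 and did not pass (edgeR adjusted p = 0.169).

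Member 37, ENSBTAG00000050435, followed member 5 across the 15 libraries: the ratio of their counts stayed between 2.56 and 3.62, and the correlation of their log2 CPM was 0.993. Members 33 and 34 had nearly the same counts in every library, at a ratio of 1.001 to 1.010. In all, 18 pairs among 29 members had a correlation of at least 0.97 over the libraries, which is given as a description, since rows that share reads and rows that change together cannot be told apart here. Counts of members therefore overstate the number of separate signals.

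By their members' levels, 7 of the 15 libraries were closest to a library of their own group: 3 ICSI, 3 androgenetic and 1 parthenogenetic. Spearman's rho of member levels between libraries of a group, over the 100 members and without a test, had a median of 0.722 in ICSI (0.421 to 0.872 over pairs), 0.533 in parthenogenetic (0.207 to 0.840) and 0.451 in androgenetic morulae (0.397 to 0.963). Between groups the median was 0.275 for androgenetic with ICSI libraries, 0.385 for androgenetic with parthenogenetic and 0.668 for parthenogenetic with ICSI libraries. Androgenetic replicates 1, 2 and 5 were closest to each other, at 0.963 for replicates 1 and 2 and 0.960 for replicates 1 and 5. Parthenogenetic replicate 6 was closest to androgenetic replicate 5, at 0.873, and reached at most 0.576 with a library of its own group. Androgenetic replicate 4 was closest to parthenogenetic replicate 2, at 0.827, and androgenetic replicate 6 to ICSI replicate 5, at 0.677. Parthenogenetic replicate 3 was closest to ICSI replicate 4, at 0.859. The points of each correlation share gene length and base composition.

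**Figure D3:**
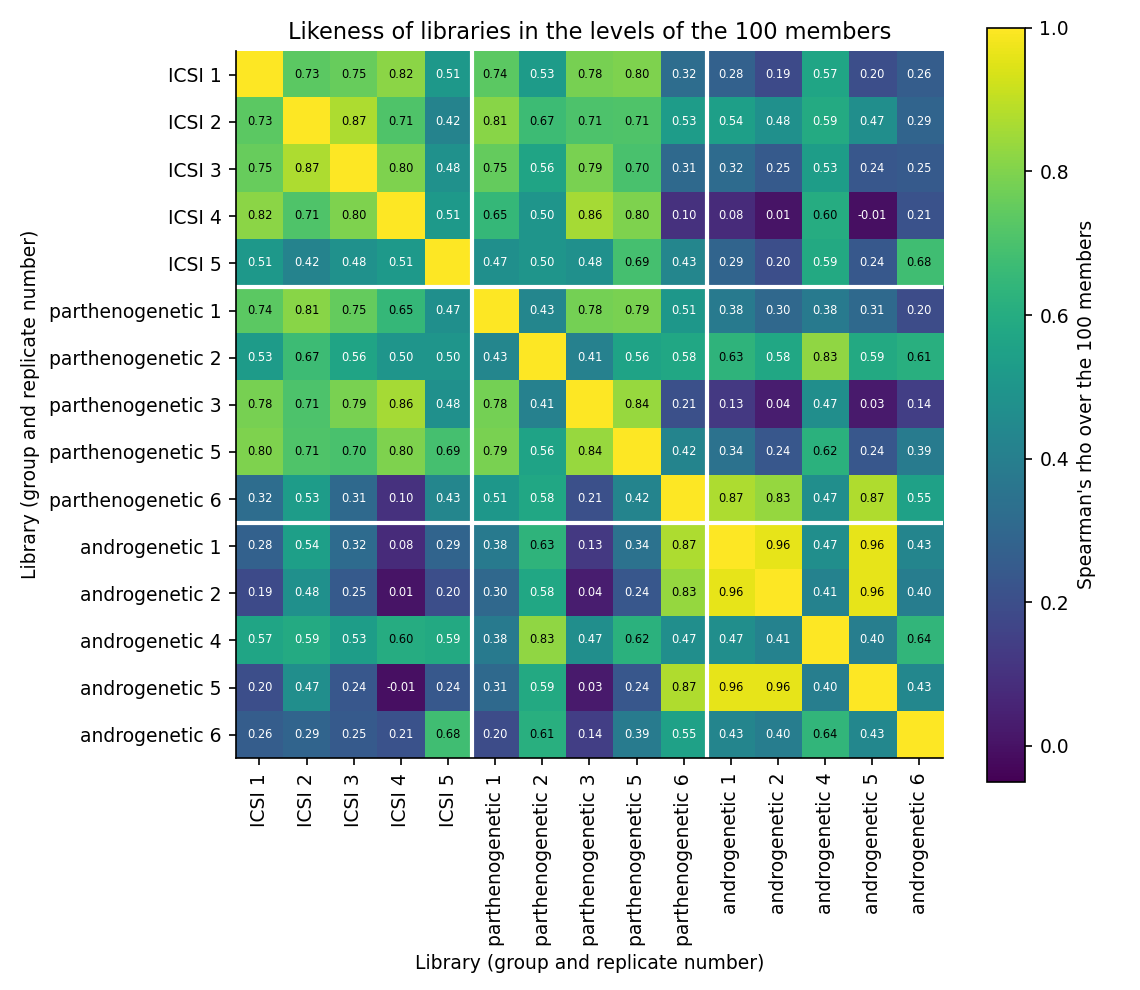
Each cell gives Spearman's rho between 2 libraries over the levels of the 100 members, with libraries ordered by group and replicate on both axes and white lines between groups. Androgenetic replicates 1, 2 and 5 reach up to 0.963 with each other, and parthenogenetic replicate 6 reaches 0.873 with androgenetic replicate 5.

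The members also varied more within the haploid groups. The SD of log2 CPM over the 5 libraries had a median over members of 0.32 in ICSI, 0.58 in parthenogenetic and 0.84 in androgenetic morulae, and 2, 8 and 36 members had an SD above 1. The rows ranked 101 to 200 had medians of 0.34, 0.61 and 0.80, so this spread was not a feature of the members alone. Without the library with the fewest rows detected in each group, the medians for members were 0.24, 0.29 and 0.68. The parthenogenetic spread thus came close to that of ICSI without replicate 6, while the androgenetic spread stayed higher without its replicate 6.

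Against the mean of the ICSI libraries, androgenetic replicates 1, 2, 4, 5 and 6 had 24, 25, 2, 28 and 10 members at least 2-fold higher in CPM and 38, 45, 6, 47 and 17 at least 2-fold lower. Parthenogenetic replicates 1, 2, 3, 5 and 6 had 2, 3, 0, 0 and 26 higher and 0, 3, 0, 0 and 25 lower. An ICSI library set against the mean of the other 4 had 0 to 5 higher and 0 to 7 lower. These ratios are of CPM without scaling factors. In the edgeR fit of the groups, on the TMM scale, the balance was the reverse. For androgenetic minus ICSI, 33 members there had a log2 fold change at least 1 higher and 8 at least 1 lower. The library ratios therefore do not show that more members fell than rose. Androgenetic replicates 1, 2, 5 and 6 and parthenogenetic replicate 6 thus lay beyond the ICSI libraries in both directions. The 100 rows ranked next had similar counts: 17, 24, 2, 22 and 12 higher and 40, 47, 10, 47 and 35 lower in the androgenetic libraries, 18 and 33 in parthenogenetic replicate 6, and 0 to 7 and 0 to 13 in ICSI libraries, so these shifts were not a feature of the members alone.

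The choice of members used neither arm of the contrast of the haploid groups. The ICSI libraries still enter the fit's estimate of spread. Parthenogenetic libraries were nearer to ICSI in the members' levels (median rho of 0.668 against 0.275 for androgenetic), so the choice may not bear evenly on the arms. Member 52, ENSBTAG00000002507, was lower in androgenetic morulae and was the only member of 100 that passed edgeR's quasi-likelihood test over all 16375 rows tested (log2 fold change -1.30 ± 0.32 SE, 2.47-fold, adjusted p = 0.0443). Its values were 584, 501.3, 547, 372 and 226 CPM in androgenetic replicates 1, 2, 4, 5 and 6. They were 1771, 1241, 2154, 1411 and 583 CPM in parthenogenetic replicates 1, 2, 3, 5 and 6, and 1686, 2082, 1948, 1704 and 867 CPM in ICSI replicates 1 to 5. All 5 androgenetic libraries lay below all ICSI libraries, and only parthenogenetic replicate 6 overlapped them. The call was not firm: it held without parthenogenetic replicate 6, ICSI replicate 5 or androgenetic replicate 4 and was lost without each of the other 12 libraries, where the change lay between -1.37 and -1.08 and the adjusted p reached 0.119 in edgeR. It was also lost with DESeq2 size factors (edgeR adjusted p = 0.0603), with no filter (0.075) and in a fit of the haploid groups alone (0.185).

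No member was higher in androgenetic than in parthenogenetic morulae by edgeR (0 of 100, where 0.916% of all rows were called higher), and 1 was lower (0.837% of all rows). At an unadjusted p under 0.05, edgeR had 13 members higher and 10 lower, against 8.93% and 9.73% of all rows. DESeq2's Wald test called 8 higher and 6 lower, against 6.05% and 4.2% of all rows. With no scaling factors edgeR called 0 and 1, against 0.788% and 1.46%. Of the 100 rows ranked next, edgeR called 1 higher and 4 lower. The unadjusted and DESeq2 shares lay within a few points of those of the whole table. Without parthenogenetic replicate 6, edgeR called 20 higher and 5 lower, against 2.96% and 2.32% of all rows. Without androgenetic replicate 4 it called 5 and 3, against 2.0% and 2.37%, and without androgenetic replicate 6 it called 2 and 2, against 1.28% and 0.919%. Without the library with the fewest rows detected in each group it called 30 higher and 8 lower, against 6.35% and 4.76%.

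The log2 fold changes of the members had a median of 0.21 on the TMM scale, with quartiles of -0.24 and 0.74, where all rows had a median of 0.00 and quartiles of -0.85 and 0.90. Of the members 66 were positive, against 49.9% of all rows, and they ran from -2.37 to 1.68. The sign of this median rested on the scaling. TMM factors lay between 0.650 and 1.02 in androgenetic and between 0.776 and 1.21 in parthenogenetic libraries, and with no scaling factors the members' median was -0.22, with 59 negative, where all rows had -0.34. Relative to all rows the members' median was higher on both scales. Without androgenetic replicate 6 it was -0.06, below the 0.06 of all rows, so the direction also rested on that library.

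**Figure D4:**
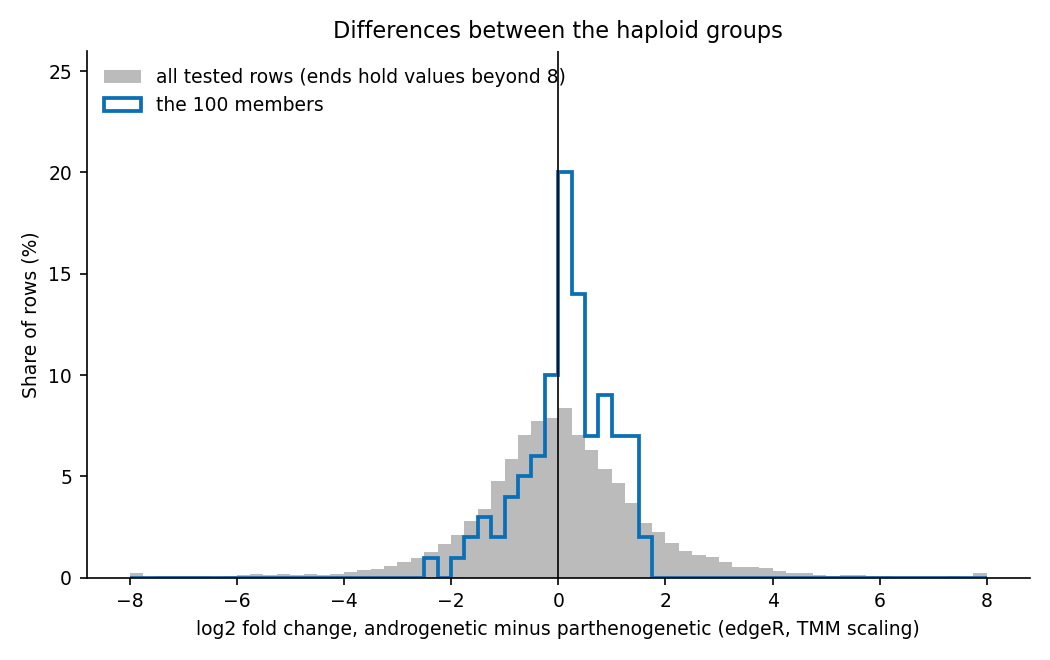
Histograms give the share of rows in bins of log2 fold change between androgenetic and parthenogenetic morulae, for all 16375 rows tested (grey) and for the 100 members (blue line). Members run from -2.37 to 1.68 with a median of 0.21, within a wider spread of all rows.

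Other members had larger differences than member 52 without passing. Member 13 had 222, 92.5, 668, 147 and 1144 CPM in androgenetic replicates 1, 2, 4, 5 and 6. It had 4856, 738, 5440, 6214 and 219 CPM in parthenogenetic replicates 1, 2, 3, 5 and 6, and 4798, 1935, 2893, 5725 and 4700 CPM in ICSI replicates 1 to 5. The androgenetic values lay below all ICSI values, but parthenogenetic replicates 2 and 6 fell among them, and the log2 fold change of -2.37 ± 0.79 between the haploid groups had an edgeR adjusted p of 0.113. Member 25 had the highest log2 fold change, 1.68 ± 0.47 (edgeR adjusted p = 0.0682), with 7370 ± 3747 CPM in androgenetic morulae against 2770 ± 1282 in parthenogenetic and 2524 ± 592 in ICSI morulae. On CPM without scaling factors, the haploid groups did not overlap for 0 members that were higher (1.38% of all rows) and 3 that were lower (3.53% of all rows).

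Against ICSI morulae the same levels that chose the members form an arm of the comparison, so the following values are a description. For androgenetic minus ICSI, edgeR gave an adjusted p under 0.05 to 10 members with higher and 2 with lower levels, where it did so for 1.76% and 1.06% of all rows. The 100 rows ranked next had 11 higher and 3 lower, and the 300 rows ranked after them 33 and 10. With no scaling factors there were 5 and 4 members (0.776% and 2.78% of all rows), and with DESeq2 size factors 12 and 1 (2.27% and 0.849%). The members' median log2 fold change was 0.24, where that of all rows was -0.01, and it was -0.28 with no scaling factors, where that of all rows was -0.54. Of the members 65 were positive, against 49.8% of all rows. On CPM without scaling factors the groups did not overlap for 6 members that were higher (1.55% of all rows) and 9 that were lower (7.96%). Member 72, ENSBTAG00000010910, had the largest value among the 10, at 2.56 ± 0.62 (edgeR adjusted p = 0.0399). Its androgenetic values were 6623, 8265, 2076, 7764 and 4402 CPM in replicates 1, 2, 4, 5 and 6, all above the ICSI values of 1380, 1657, 1217, 1134 and 1892 CPM in replicates 1 to 5. In parthenogenetic replicates 1, 2, 3, 5 and 6 it stood at 1796, 4046, 1060, 1634 and 8220 CPM, across both ranges, so it did not pass between the haploid groups (1.004 ± 0.60, edgeR adjusted p = 0.385).

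Member 37 had 2.41 ± 0.57 (edgeR adjusted p = 0.0373) and member 5, which it followed, 2.27 ± 0.56 (adjusted p = 0.0416). Members 25 and 94 had 2.11 ± 0.48 and 2.05 ± 0.46 in the same fit (edgeR adjusted p = 0.0360 and 0.0359). Members 33 and 34, the pair with nearly the same counts, both had 1.83 ± 0.42. The remaining members of the 10 were members 29, 77 and 95, at 1.77, 1.75 and 1.93. Member 94 followed members 25 and 77 across the libraries, at correlations of log2 CPM of 0.976 and 0.973. The 10 calls are thus not 10 separate signals.

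The 2 members with lower values were member 52, at -1.35 ± 0.32 (edgeR adjusted p = 0.0379), and member 38, ENSBTAG00000014534, at -1.12 ± 0.30 (edgeR adjusted p = 0.0498). Member 38 had 638, 533, 997, 452 and 532 CPM in androgenetic replicates 1, 2, 4, 5 and 6 and 1916, 2541, 2655, 1952 and 1005 CPM in ICSI replicates 1 to 5, so the groups did not overlap, although androgenetic replicate 4 came close to ICSI replicate 5. In parthenogenetic replicates 1, 2, 3, 5 and 6 it had 1963, 1766, 1763, 1505 and 830 CPM. Member 71, at 312 ± 354 CPM in androgenetic against 1486 ± 381 in ICSI morulae, was the member placed lowest in androgenetic morulae, at rank 533, and did not pass (-1.86 ± 0.52, edgeR adjusted p = 0.0553).

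The 12 calls against ICSI depended on the libraries. None passed in edgeR when any of ICSI replicates 1 to 4 or of androgenetic replicates 1, 2 and 5 was left out (0 higher and 0 lower each time). Of all rows, 0.0528% were then called higher and 0.0645% lower without androgenetic replicate 5. In the other fits of this kind 0% were called higher and at most 0.00592% lower, so the loss was not particular to the members. Without parthenogenetic replicate 6 there were 27 higher and 4 lower (3.23% and 2.08% of all rows), and without androgenetic replicate 4 there were 26 and 4 (3.46% and 2.91%). Without the library with the fewest rows detected in each group there were 33 and 6 (5.87% and 3.79%). At an unadjusted p under 0.05, edgeR had 35 higher and 8 lower with all libraries, against 9.87% and 9.86% of all rows, and DESeq2 called 32 and 4, against 7.65% and 4.49%.

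**Figure D5:**
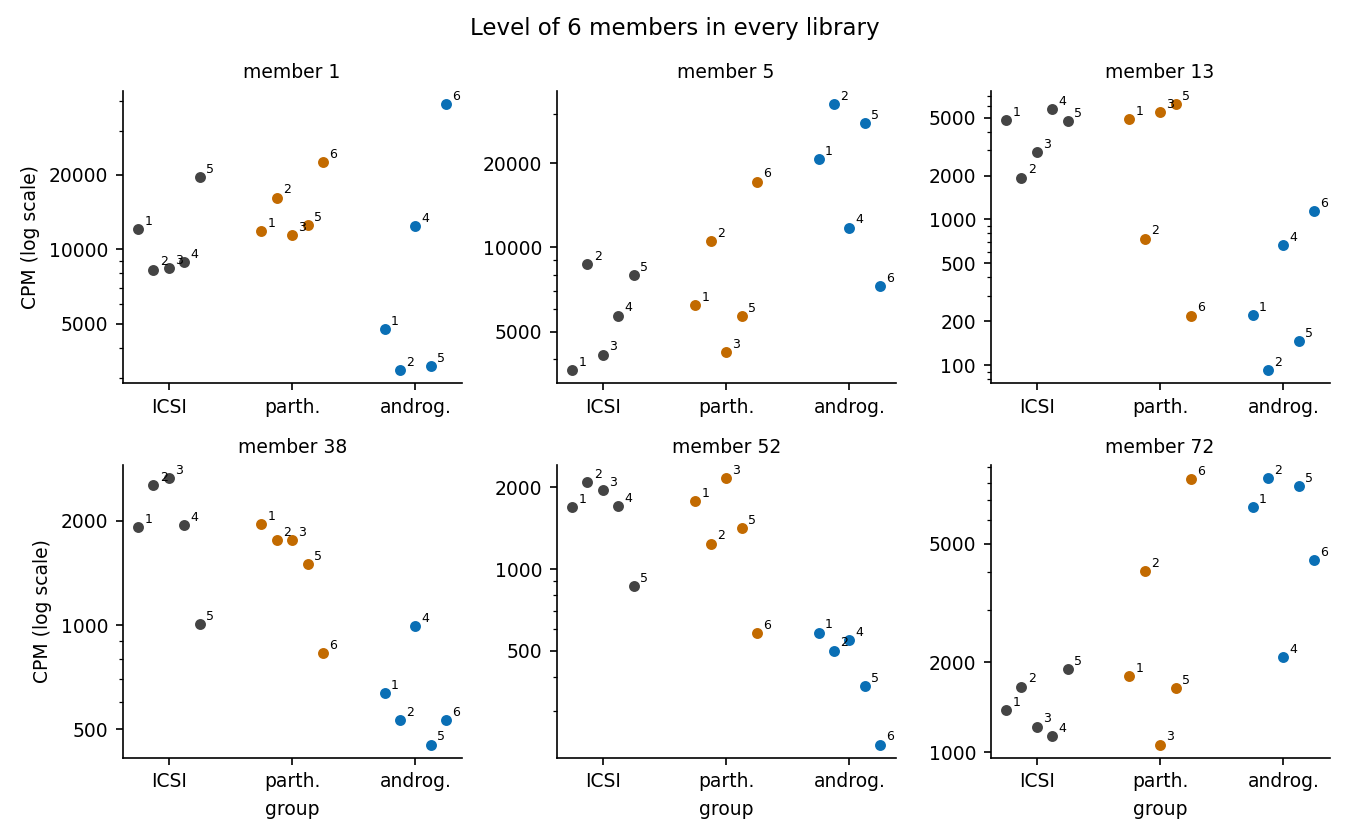
Each panel plots the CPM of a member in every library on a logarithmic axis, by group and with replicate numbers beside the points. Member 52 lies between 226 and 584 CPM in androgenetic libraries and above them in ICSI libraries, whereas for member 1 the androgenetic libraries run from 3248 to 38822 CPM.

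For parthenogenetic minus ICSI, edgeR called 0 members higher and 0 lower, where it called 0% of all rows higher and 0.0733% lower. At an unadjusted p under 0.05 it had 4 higher and 0 lower, against 0.8% and 1.06% of all rows, and DESeq2 called 0 in either direction (0% and 0.238% of all rows). The groups did not overlap for 1 member that was higher (0.165% of all rows) and 1 that was lower (0.837%), and 65 members were positive (51.2% of all rows). The median of the members was 0.23, where that of all rows was 0.02, and log2 fold changes ran from -0.45 to 1.56. Member 72 had the highest, 1.56 ± 0.60, at an unadjusted p of 0.0187 (edgeR). Its parthenogenetic replicate 6 stood at 8220 CPM, where the other libraries of that group had 1060 to 4046 CPM. Without that library the members' median was 0.096, where that of all rows was -0.001. EdgeR then had 1 member at an unadjusted p under 0.05, against 300 of all 17112 rows. It called 0 members higher and 0 lower, against 0% and 0.0175% of all rows. Few calls do not show that these groups were alike in the members.

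The shares of the other rows differed by abundance. The rows ranked 101 to 200 in ICSI took 9.97% ± 0.31 of counts there, 10.5% ± 0.55 in parthenogenetic and 11.1% ± 1.13 in androgenetic morulae. The rows from there to rank 500 took 16.9% ± 0.55 in ICSI, 16.9% ± 0.59 in parthenogenetic and 18.1% ± 0.53 in androgenetic morulae, where all androgenetic libraries (17.6% to 18.9%) lay above all ICSI libraries (16.2% to 17.5%). The rows from there to rank 1000 took 13.95% ± 0.42, 13.6% ± 0.96 and 12.5% ± 1.09. Rows ranked 1001 to 5000 took 24.7% ± 1.55, 22.6% ± 3.55 and 17.8% ± 2.11, so the androgenetic libraries (16.2% to 21.1%) lay below all ICSI libraries (22.6% to 26.6%). The shares of a library sum to a fixed total, so they cannot vary independently and do not show which rows changed. In whole embryos, fewer cells of a type and less RNA per cell cannot be told apart.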

How the data were processed

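The authors deposited 1 table of raw counts per gene row for 15 libraries of polyadenylated RNA, in whole numbers. Libraries were made with the SMART-Seq HT and Nextera XT kits, per the labels' protocols. The submitters' processing notes name Trim Galore, cutadapt, STAR and featureCounts. The genome build, annotation release and use of strand are not given in the sources used here, so overlapping genes and near-identical copies may share or split counts. Groups were taken from the labels.

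CPM was computed on the total of all rows. Rows with an Ensembl identifier held 90.5% to 94.2% of a library's counts. Contrasts used edgeR 4.0.16 in R 4.3.3 (filterByExpr, TMM scaling, quasi-likelihood test, 1 coefficient per group over all 15 libraries) with Benjamini-Hochberg adjustment over all 16375 rows tested and a threshold of 0.05. All 100 members passed the filter, and a fold change without further words is on that TMM scale. DESeq2 1.42.0 was an alternative, and the fitting script was tested on simulated data. Exact binomial intervals (95%) cover counting error only, since reads without molecular identifiers are not independent molecules. No pair of libraries within a group agreed within sampling noise (chi-square per degree of freedom of at least 64.8). Other alternatives were DESeq2 size factors, no scaling, no filter, a fit of the compared groups alone, a replicate block, other choices of members, and leaving out libraries. The members, gene lists and tests were chosen with earlier results of these data known. The rule named members that passed in the contrast of the haploid groups, by their rank, since identifiers could not be paired with symbols.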

Additional observations from a re-analysis of the deposited data

Results flagged for a closer look

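Among 27 groups of 5 libraries checked for a value far from the others (Dixon's criterion, which chance meets in about 1 of 20 groups), 3 had one. Member 1 stood at 38820 CPM in androgenetic replicate 6, far above the other androgenetic libraries. In parthenogenetic replicate 6 the members took 31.78% of counts and the library's own highest rows 39.58%, both far above the other parthenogenetic libraries. That library also had the fewest rows detected of its group, 16154, as did androgenetic replicate 6 with 13564, and the part of this in the values was not tested. The response of member 52 against ICSI differed between the haploid groups: its log2 fold change was -1.35 in androgenetic and -0.04 in parthenogenetic morulae, a difference of -1.305 with an edgeR adjusted p of 0.0443. This is the contrast of the haploid groups already given, and the call was lost in 12 of 15 fits that left out a library and with DESeq2 size factors, no filter or a fit of the haploid groups alone (edgeR adjusted p of 0.0603 to 0.185 in those 3).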

How the results depend on the processing

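The members' counts of calls depended on the fit, and the cause was not tested. Between the haploid groups edgeR called 0 members higher and 1 lower (0.916% and 0.837% of all rows). DESeq2 called 8 and 6 (6.05% and 4.2%). Leaving out the library with the fewest rows detected in each group gave 30 and 8 (6.35% and 4.76%). No member was lower with DESeq2 size factors (0), no filter (0) or a fit of the 2 groups (0). For androgenetic minus ICSI the 10 higher and 2 lower became 5 and 4 without scaling (0.776% and 2.78% of all rows), 32 and 4 by DESeq2 (7.65% and 4.49%), 18 and 1 in the fit of 2 groups (2.5% and 0.908%), and 33 and 6 without the libraries with the fewest rows (5.87% and 3.79%). The balance over all rows moved with the scaling too. The members called lower were 1 with DESeq2 size factors and 0 with no filter.

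The medians without scaling were -0.22 (androgenetic minus parthenogenetic), -0.28 (androgenetic minus ICSI) and 0.037 (parthenogenetic minus ICSI), and by DESeq2's Wald test, added after seeing the data, 0.33, 0.36 and 0.23. A choice of members over all 15 libraries admits rows through the androgenetic libraries where they are high, which fixes its direction, so it bears on no result: it gave medians of 0.57, 1.21 and 0.59, share differences of 6.16 and 9.96 points for androgenetic minus parthenogenetic and minus ICSI, and calls of 1 higher and 0 lower and of 24 and 1. The share of a library's own highest rows differed between the haploid groups by 11.03 points (exact permutation test, adjusted p = 0.0429) without the libraries with the fewest rows. This alternative, like no scaling and every other on that share, was chosen after seeing the data.

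Leaving out each library in turn gave medians of -0.059 to 0.30 between the haploid groups, 0.10 to 0.53 for androgenetic minus ICSI and 0.10 to 0.35 for parthenogenetic minus ICSI. Calls between the haploid groups ran from 0 to 20 higher and 0 to 5 lower, and for androgenetic minus ICSI from 0 to 27 and 0 to 4. The shares of all rows called moved too. Between the haploid groups they ran from 0.0412% to 2.96% higher and 0.0412% to 2.37% lower. For androgenetic minus ICSI they ran from 0% to 3.46% and 0% to 2.91%. Differences in member share ran from 0.982 to 3.14, 3.52 to 4.48 and 0.768 to 2.93 points in the same order of comparisons. Differences in the share of own highest rows ran from 6.40 to 10.6, 10.4 to 13.8 and 1.13 to 5.06 points.

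Replicate numbers did not pair the libraries: deviations of same-numbered libraries correlated at -0.045 to 0.092, and 2 of 15 libraries were closest to their own number. With the replicate block, edgeR called 0 members higher and 0 lower between the haploid groups (member 52 at an adjusted p of 0.068). Of all rows it called 0.269% higher and 0.269% lower there. For androgenetic minus ICSI it called 0 and 0 members, and 0% and 0% of all rows. The members' medians with the block were -0.06, -0.082 and 0.10. The share between the haploid groups has no value with left-out ICSI libraries, which it does not use.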

Other observations

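Rows listed under a symbol instead of an Ensembl identifier could not be members, and 3 of them in ICSI, 6 in parthenogenetic and 15 in androgenetic morulae stood above the mean CPM of member 100. HMGN2, which encodes a nucleosome-binding protein, had 3520 ± 1376 CPM in the androgenetic group, against 2604 ± 486 in the parthenogenetic and 2589 ± 229 in the ICSI group (SD, n = 5). MAD2L1, a spindle checkpoint protein, had 1835 ± 2007, 1949 ± 150 and 2367 ± 624 CPM. TNIK, a kinase that binds the TCF4 and beta-catenin complex of WNT signalling, had 1889 ± 1069, 769 ± 452 and 492 ± 203 CPM. It rose in androgenetic against ICSI morulae by 2.45 ± 0.57 on the log2 scale (edgeR adjusted p = 0.0369), and the 1.54 ± 0.55 against parthenogenetic morulae did not pass (adjusted p = 0.137). Of the 15 rows, 9 including TNIK passed against ICSI, all higher (edgeR), where 1.76% of all rows were called higher and 1.06% lower. Between the haploid groups 1 passed, LOC781152, at 2.56 ± 0.63 (edgeR adjusted p = 0.0454), where 0.916% of all rows were called higher. The 15 rows were picked by a high androgenetic mean, which favours higher values in both comparisons, so nothing is read from these counts. These rows were looked at after their values had been seen. For androgenetic minus ICSI, edgeR called 0 rows of the whole table higher without any of ICSI replicates 1 to 4. The same held without androgenetic replicate 1 or 2 and with the replicate block. The calls against ICSI, that of TNIK included, were therefore not firm.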
